A study of Mus musculus with 8 samples.

Results

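The 34 genes described here mark choroid plexus epithelium, the secretory cell sheet of the brain ventricles. They were chosen by name, as the rows of the deposited count table whose gene symbol is on a list of 34 choroid plexus markers, and all 34 were found among the 18983 genes of the table. All 34 passed the filter on low counts that left 15186 genes for testing. They were read in poly(A) RNA libraries of central amygdala tissue from 129SV mice, 7 months old, of which 4 followed 20 weeks of high fat diet and 4 followed 20 weeks on normal chow. No genetic change or other agent is named for either group, and sex is not given in the sources used here. Each library carries the replicate number of its title (1, 2, 5 or 8), and values are given in that order within each diet. Whether the libraries come from separate mice is not stated in the labels, and a p-value then measures the spread between these samples alone, which could be technical.

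The choroid plexus is a tuft of capillaries and stroma covered by epithelium that makes cerebrospinal fluid. The epithelium moves sodium, chloride, bicarbonate and water into the ventricle through transporters, channels and carbonic anhydrases, and it secretes carrier proteins, of which transthyretin is the best known. It is closed by claudin tight junctions and depends on the homeobox factor Otx2. The temporal horn of the lateral ventricle, which holds choroid plexus, runs close to the amygdala.

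Library totals were 17451111 to 19562368 counts. Levels are given in CPM, which scales the counts of each library to a common total with TMM factors. Markers of the labelled tissue were present in every library but varied widely. Sst, the somatostatin gene, ranged from 223 to 463 CPM, Penk, the enkephalin precursor gene, from 20.2 to 796 CPM, and Prkcd, of a central lateral population, from 10.97 CPM in high fat replicate 1 to 273 CPM in chow replicate 5. Slc17a7, the glutamate transporter of cortical and basolateral neurons, ranged from 81.8 CPM in chow replicate 8 to 1724 CPM in high fat replicate 1. Chow replicate 1 was the highest library for 33 of the 34 genes of the choroid plexus list, so the diet folds are given with and without it.

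The summed level of the 34 genes was 1000.4, 4673, 642 and 2305 CPM in the high fat libraries, in the order 1, 2, 5 and 8, and 9958, 2508, 784 and 842 CPM in the chow libraries. The high and the low libraries were therefore mixed over both diets. Ttr and Enpp2 made up most of each sum. They were at 5794 and 1999 CPM in chow replicate 1 and at 71.5 and 519 CPM in chow replicate 5. Of the 34 genes, 33 were highest in chow replicate 1, beside 33.2% of all genes tested, and the exception was Prlr. Chow replicate 1 was also the lowest library for 5159 of the 15186 genes tested, and for 0 of the 34. It was thus at an extreme in many genes outside the list, in both directions. High fat replicate 2 was next highest for 28 of the 34, beside 11.4% of all genes tested. Chow replicate 5 was lowest for 20, beside 12.1% of all genes tested. High fat replicate 2 was above chow replicate 2 for 31 of the 34 genes, chow replicate 2 above high fat replicate 8 for 25, and high fat replicate 8 above high fat replicate 1 for 32. In this bulk tissue, fewer epithelial cells and less of an RNA per cell cannot be told apart.

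**Figure D1:**
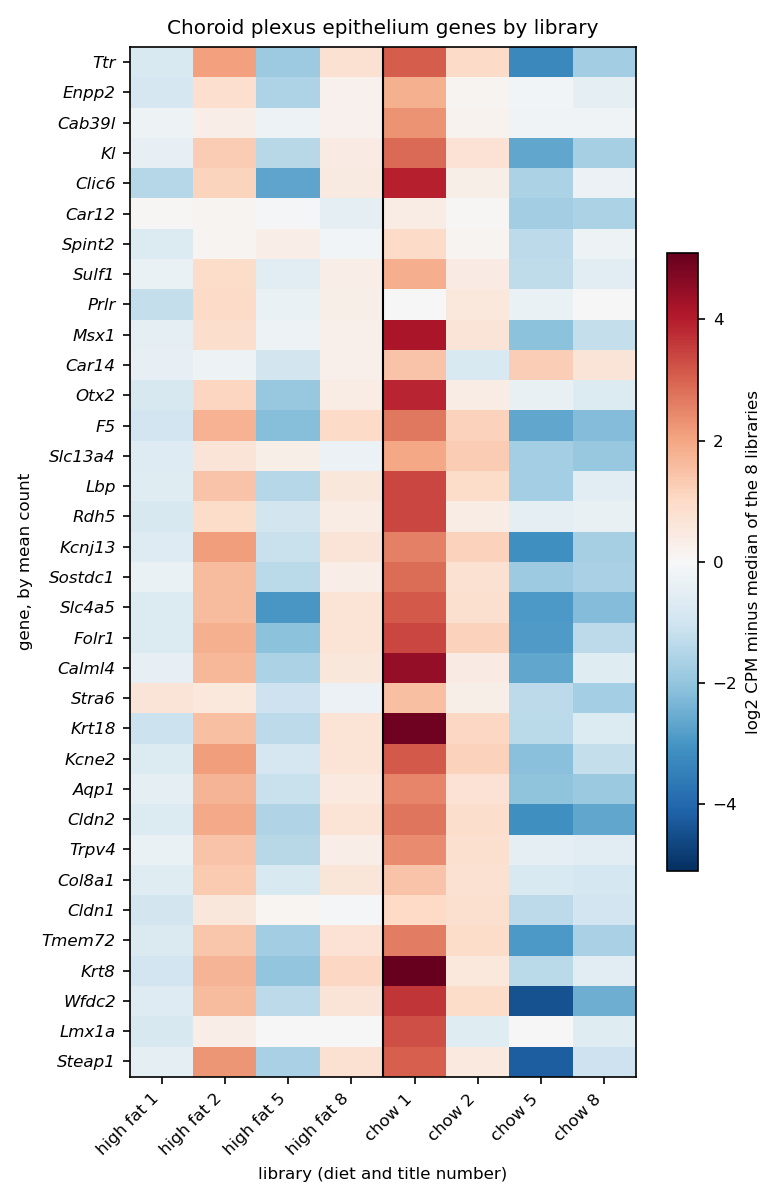
Log2 CPM of the 34 genes in each library minus the median of the 8 libraries, with high fat libraries left of the line and chow libraries right of it. Red is above the median of the gene and blue below it, and 33 of the 34 genes reach their highest value in chow 1.

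Ttr encodes transthyretin, the carrier of thyroid hormone and of retinol-binding protein. It was at 397, 2915, 190 and 1194 CPM with high fat diet and at 5794, 1349, 71.5 and 201 CPM with chow. The highest library was thus 81.1-fold above the lowest, chow replicate 5 (95% counting interval 76.7 to 85.7, which compares these libraries and not the diets). Both diets held libraries with much Ttr and libraries with little, and the medians were 795 CPM in high fat libraries and 775 CPM in chow libraries. Per length, Ttr was far above the other genes of the list: the authors' deposited table gives mean TPM values of 3840 for high fat diet and 5276 for chow. The next gene, Enpp2, is at 442 and 646 in the authors' deposited table, and the remaining genes have mean TPM values of at most 70.7.

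Enpp2 encodes autotaxin, a secreted enzyme that makes lysophosphatidic acid and that oligodendrocytes also express. It was at 320, 1036, 193 and 666 CPM with high fat diet and at 1999, 631, 519 and 411 CPM with chow. It followed Ttr in the libraries rich in Ttr but not in chow replicate 5, where Ttr was lowest and Enpp2 was above its levels in high fat replicates 1 and 5 and chow replicate 8. The summed level of 7 oligodendrocyte genes was also highest in chow replicate 5, at 18669 CPM, beside 3029 to 14377 CPM in the other 7 libraries. Mbp and Cnp of this list, both of myelin, were at 10626 and 1011 CPM there. The part of oligodendrocytes in the Enpp2 values was not tested.

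Among the other secreted products, F5, coagulation factor V, was at 4.42, 29.7, 1.96 and 17.2 CPM with high fat diet and at 55.8, 19.7, 1.40 and 1.88 CPM with chow. The library order was close to that of Ttr, with chow replicate 1 and high fat replicate 2 at the top and chow replicate 5 at the bottom. Spint2, an inhibitor of serine proteases, was much flatter, at 18.7, 33.2, 38.5 and 27.8 CPM with high fat diet and 60.1, 33.95, 12.1 and 25.2 CPM with chow. Sulf1, which removes sulfate groups from heparan sulfate, was at 16.7, 40.1, 14.3 and 26.1 CPM and 74.7, 28.0, 8.59 and 13.9 CPM. Sostdc1, a secreted antagonist of BMP and Wnt signals, ranged from 1.97 to 52.1 CPM. Lbp, the lipopolysaccharide-binding protein, ranged from 1.85 to 65.8 CPM. Wfdc2, a small secreted protein with a whey acidic protein core, ranged from 0.0562 CPM, which is 1 count, to 15.5 CPM. For Wfdc2 the ratio of chow replicate 1 to chow replicate 5 was 275 with a counting interval of 49.1 to 10917, so its size is poorly known.

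Genes of ion and water transport were led by Clic6, a chloride intracellular channel protein. Clic6 was at 8.62, 51.3, 3.59 and 32.0 CPM with high fat diet and at 359, 29.0, 7.64 and 18.7 CPM with chow, so chow replicate 1 held 19.1 times the median of the other libraries. Kcnj13, the Kir7.1 potassium channel, and Kcne2, a small subunit of potassium channels, ranged from 0.842 to 43.3 CPM and from 0.842 to 32.7 CPM. Both had their lowest value in chow replicate 5 and their highest in chow replicate 1. Aqp1, the water channel of the apical membrane, ranged from 1.24 to 28.5 CPM, and Slc4a5, a sodium bicarbonate cotransporter, from 0.707 to 49.3 CPM. Trpv4, an osmotically gated cation channel, ranged from 1.47 to 20.7 CPM, and Steap1, a metalloreductase family member, from 0.0562 CPM, again 1 count, to 8.49 CPM. Slc13a4, a sodium sulfate cotransporter, was at 6.88, 16.8, 13.2 and 8.67 CPM with high fat diet and at 41.5, 26.3, 3.26 and 2.82 CPM with chow. Unlike most of the list, Slc13a4 was higher in chow replicate 2 than in high fat replicate 2.

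The membrane carbonic anhydrases Car12 and Car14, which make bicarbonate from carbon dioxide, varied less than Ttr. Car12 was at 66.2, 70.1, 61.1 and 46.4 CPM with high fat diet and at 82.0, 66.0, 18.8 and 20.8 CPM with chow. Chow replicates 5 and 8 were low, and the other 6 libraries lay between 46.4 and 82.0 CPM. Its highest, next highest and lowest libraries were those of Ttr, but its range was 4.36-fold. In chow replicates 5 and 8 the summed level of 5 excitatory neuron genes was also low, at 1170 and 1053 CPM, but so was that of chow replicate 1, at 1743 CPM, beside 2324 to 6133 CPM in the remaining libraries. Its leading genes Camk2a, Slc17a7 and Nptx1 were at 868, 200.1 and 91.6 CPM in chow replicate 5. Car14 was at 12.9, 14.6, 8.98 and 20.3 CPM with high fat diet and at 47.6, 10.1, 41.6 and 27.5 CPM with chow. Its highest libraries were chow replicates 1, 5 and 8, which were also the highest in the summed oligodendrocyte genes, at 14377, 18669 and 13039 CPM. What part these cells have in the Car12 and Car14 values was not tested.

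Receptors differed from each other. Kl encodes klotho, a membrane protein that serves as a co-receptor for fibroblast growth factor 23, and was at 26.8, 88.1, 13.5 and 48.1 CPM with high fat diet and 266, 59.9, 5.78 and 11.001 CPM with chow. Its libraries stood in the same order as those of Ttr, except that high fat replicate 5 was above chow replicate 8. Folr1, the folate receptor that carries folate into cerebrospinal fluid, was at 2.80, 16.1, 1.09 and 7.46 CPM and at 47.8, 10.3, 0.618 and 1.82 CPM. It kept the full library order of Ttr. Prlr, the prolactin receptor, was the exception of the list, at 9.80, 45.3, 18.1 and 28.2 CPM with high fat diet and 23.0, 33.1, 18.03 and 22.8 CPM with chow, and chow replicate 1 lay in the middle. Stra6, the receptor for retinol-binding protein, ranged from 2.60 to 25.2 CPM with high fat replicate 1 next to chow replicate 1. Rdh5, a retinol dehydrogenase, ranged from 3.43 to 67.8 CPM.

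**Figure D2:**
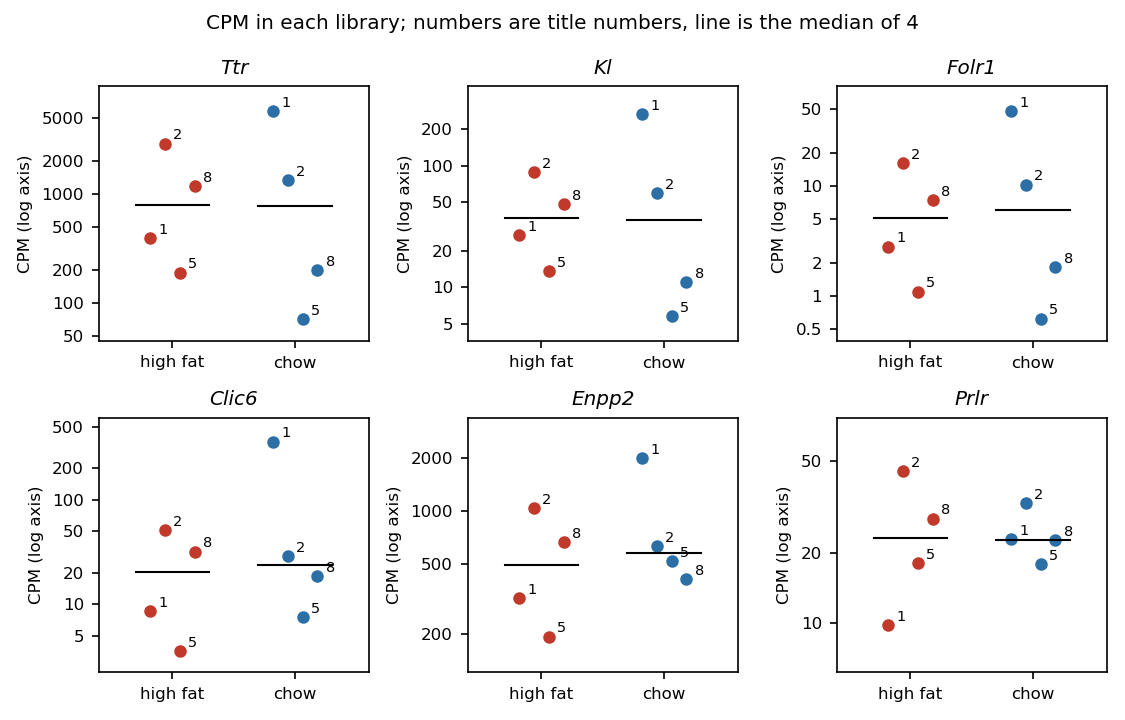
CPM of 6 genes in each library on a log axis, with the title number beside each point and the median of each diet as a line. Ttr, Kl and Folr1 spread over at least 46.1-fold within chow, Clic6 is set apart in chow 1, Enpp2 is less low in chow 5, and Prlr is highest in high fat 2.

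Genes of junctions and the cytoskeleton split in the same way. Cldn2, a claudin of leaky epithelia, ranged from 0.505 CPM in chow replicate 5 to 29.8 CPM in chow replicate 1, while Cldn1, which other barrier cells also make, ranged only from 2.19 to 11.2 CPM. Col8a1, a short-chain collagen, ranged from 2.65 to 13.5 CPM. Krt18 and Krt8 encode the paired keratins of simple epithelia and both lie on chromosome 15 (102028216 to 102032026 and 101996711 to 102004342, GRCm38.p6). Krt18 was at 0.896, 5.50, 0.762 and 3.13 CPM with high fat diet and at 58.6, 3.97, 0.730 and 1.16 CPM with chow. Krt8 was at 0.448, 2.92, 0.218 and 1.81 CPM and at 30.0, 1.27, 0.337 and 0.608 CPM. In chow replicate 1 they were 50.5-fold and 49.4-fold above the median of the other libraries, the largest such excesses of the list. These genes were not checked for near-identical copies among which the authors' counting could have divided reads.

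The transcription factors Otx2, Msx1 and Lmx1a, of which the latter pair pattern the dorsal midline from which choroid plexus arises, also peaked in chow replicate 1. Otx2 was at 3.69, 13.9, 1.74 and 8.67 CPM with high fat diet and at 95.6, 8.67, 4.998 and 4.09 CPM with chow. Msx1 was at 5.43, 14.03, 6.26 and 9.11 CPM and at 134, 11.9, 1.80 and 3.26 CPM. Lmx1a was at 11.6 CPM in chow replicate 1 and between 0.672 and 1.49 CPM in the other 7 libraries. Each of these 3 genes thus had a single high value, in chow replicate 1, and both diets overlapped in the other libraries. Of the remaining genes, Calml4, a calmodulin-like protein, ranged from 0.449 to 62.6 CPM, and Tmem72, a membrane protein, from 0.393 to 18.4 CPM. Cab39l, a scaffold of kinase complexes, was at 39.8, 59.1, 39.1 and 54.3 CPM with high fat diet and at 232, 53.0, 42.0 and 41.7 CPM with chow. Outside chow replicate 1, Cab39l stayed between 39.1 and 59.1 CPM while Ttr went from 71.5 to 2915 CPM.

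Since Otx2 binds the core TAATCC and the genes of the list varied together, promoters were searched for it on both strands, where it reads GGATTA on the other strand. RefSeq promoters (GRCm38.p6, 250 bases before to 50 after a start) were found for 27 of the 34 genes, with 38 starts. The core was in 2 of the 38 promoters, or 5.26%, beside 7.06% of 32817 promoters of the same length. The pair of promoters that hold it belong to Otx2 itself (chr14:48665060-48665359, minus strand, core at position -211 from the start) and to Car14 (chr3:95904636-95904935, minus strand, core at position -61). They are shown 5′ to 3′ because they are the only matches, with the core in capitals, and such a match is a description of letters, not a site.
Otx2: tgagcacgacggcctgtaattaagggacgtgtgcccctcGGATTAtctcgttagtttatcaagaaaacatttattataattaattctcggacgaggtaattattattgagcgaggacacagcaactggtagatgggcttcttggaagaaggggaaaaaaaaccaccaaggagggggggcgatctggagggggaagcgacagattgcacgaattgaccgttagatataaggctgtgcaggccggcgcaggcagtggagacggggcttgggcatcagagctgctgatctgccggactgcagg
Car14: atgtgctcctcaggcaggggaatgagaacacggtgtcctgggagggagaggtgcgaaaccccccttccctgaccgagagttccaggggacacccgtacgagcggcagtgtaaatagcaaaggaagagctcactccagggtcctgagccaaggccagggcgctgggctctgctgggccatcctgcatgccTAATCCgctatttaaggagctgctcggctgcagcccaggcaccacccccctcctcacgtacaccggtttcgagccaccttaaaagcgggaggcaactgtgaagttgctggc

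To see whether the genes kept a fixed proportion to each other, each was expressed per 1000 CPM of Ttr within a library. Of the 33 other genes, 8 kept this ratio within 3-fold over all 8 libraries although Ttr itself varied 81.1-fold: Kl, F5, Kcnj13, Slc4a5, Folr1, Kcne2, Cldn2 and Tmem72. Folr1 was the steadiest, between 5.51 and 9.08 CPM per 1000 CPM of Ttr, a 1.65-fold range. Tmem72 lay between 2.74 and 5.50, a 2.01-fold range, and F5 between 9.36 and 19.6, a 2.10-fold range. A further 11 genes had a range of 3 to 10-fold, and 14 had at least 10-fold. The latter included Car14, Prlr, Lmx1a, Cab39l and Car12. Their ratios peaked where Ttr was low, in chow replicate 5 for the first 4 and in high fat replicate 5 for Car12. A ratio to Ttr tends to peak where Ttr is low in any gene that varies less than Ttr, as these did. Prlr went from 3.97 CPM per 1000 CPM of Ttr in chow replicate 1 to 252 in chow replicate 5. This ratio is a description, with no test, and a gene with few counts in chow replicate 5 has a poorly known value there.

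**Figure D3:**
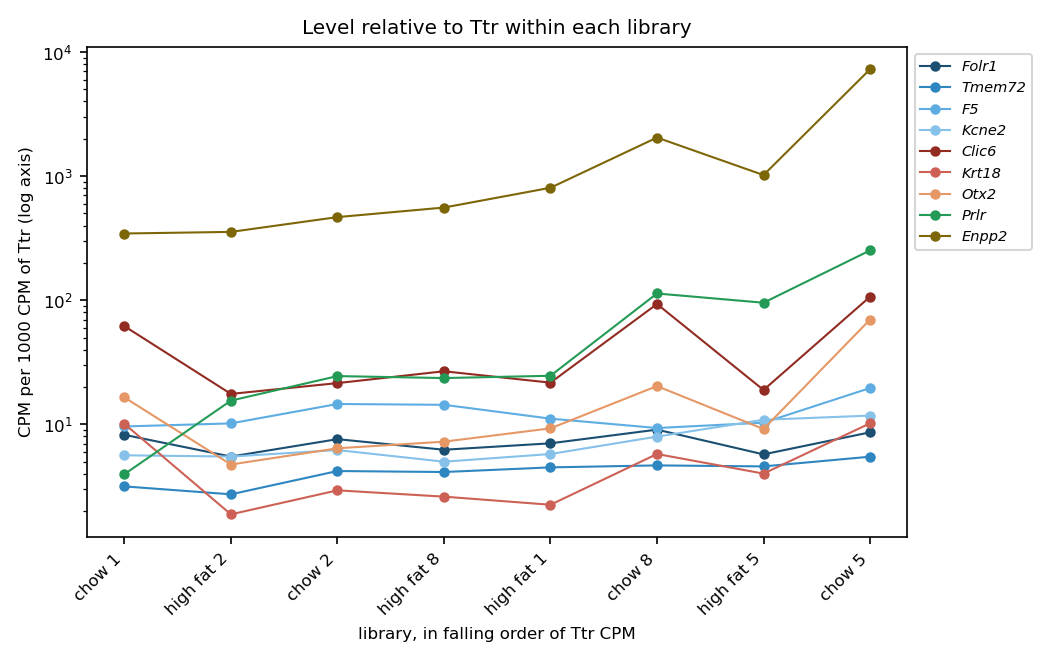
Level of 9 genes per 1000 CPM of Ttr (log axis) in each library, with libraries in falling order of Ttr. Folr1, Tmem72, F5 and Kcne2 stay nearly level, and Prlr and Enpp2 climb toward the libraries low in Ttr. Clic6, Krt18 and Otx2 are raised in chow 1 against high fat 2, but Clic6 and Otx2 are higher still in chow 5 and chow 8.

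The 2 libraries richest in Ttr, chow replicate 1 and high fat replicate 2, differed in the proportions of these genes to each other. Ttr was 1.99-fold higher in chow replicate 1 (95% counting interval 1.97 to 2.01). Of the 33 other genes, 17 had an interval wholly above that of Ttr, 7 wholly below and 9 overlapping it. The same shares over all genes were not computed. Chow replicate 1 was the highest library for 33.2% of all genes tested, and high fat replicate 2 for 4.21%. These intervals cover counting error only and compare 2 libraries, not 2 diets. Krt18 was 10.6-fold higher (8.67 to 13.2), Krt8 10.3-fold (7.76 to 13.9), Msx1 9.53-fold (8.38 to 10.9) and Lmx1a 7.84-fold (5.24 to 12.2). Clic6, Calml4 and Otx2 followed at 6.98, 6.98 and 6.90-fold, and Rdh5 at 5.50-fold. At the other end, Kcnj13 was 1.34-fold higher (1.21 to 1.49), Col8a1 1.11-fold (0.921 to 1.33), and Prlr was at 0.508 of its level in high fat replicate 2 (0.451 to 0.571). Kcne2, on chromosome 16 like Clic6 (92292389 to 92298133 and 92498147 to 92541241, GRCm38.p6), was 2.04-fold higher (1.77 to 2.35).

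**Figure D4:**
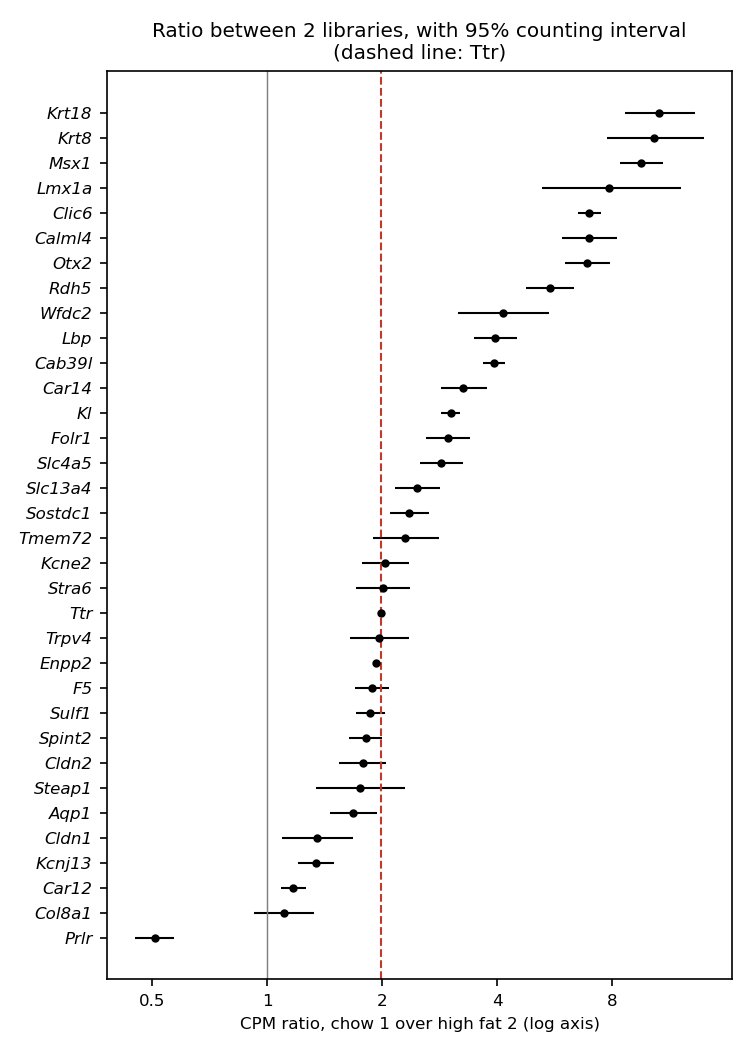
Ratio of CPM in chow 1 to CPM in high fat 2 for each gene on a log axis, with 95% counting intervals, the ratio of Ttr as a dashed line and a ratio of 1 as a grey line. Keratins, Msx1, Lmx1a, Clic6, Calml4 and Otx2 lie far above Ttr, and Prlr lies below 1.

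Other cell types of the ventricle wall were read from lists beside these values. All 10 ependymal genes tested were highest in chow replicate 1, beside 33.2% of all genes tested. Their summed level was 342 CPM there and 22.3 to 63.2 CPM in the other 7 libraries. Foxj1, the master factor of motile cilia, was at 13.3, 20.5, 6.42 and 17.8 CPM with high fat diet and at 121, 10.8, 24.5 and 19.4 CPM with chow, while Rsph1 and Cfap126, both of the axoneme, reached 45.7 and 53.2 CPM in that library. High fat replicate 2, with 4673 CPM of the choroid plexus list, had 63.2 CPM of the ependymal list, and chow replicate 8, with 842 CPM, had 56.1 CPM. All 5 genes of red blood cells were also highest in chow replicate 1, again beside 33.2% of all genes tested. Their summed level was 2291 CPM there and 173 to 720 CPM elsewhere, led by Hbb-bs, Hba-a1 and Hba-a2 at 742, 712 and 718 CPM. Hba-a1 and Hba-a2 are near-identical, so their split is uncertain. The sum of 8 stromal and meningeal fibroblast genes was 94.1 CPM in chow replicate 1, 330 CPM in high fat replicate 1 and 62.1 to 265 CPM in the others. Dcn, Aebp1 and Col1a2, the most abundant of the 8, were at 10.8, 55.0 and 10.97 CPM in chow replicate 1, and in the other libraries Dcn ranged from 18.7 to 279 CPM. Dcn carried the low sum of chow replicate 1: the other 7 genes summed to 83.4 CPM there, next to 93.6 CPM in chow replicate 2 and 43.4 to 75.3 CPM in the other libraries. Endothelial genes ranged from 153 to 240 CPM, with Flt1, Slco1a4 and Cldn5 at 45.6, 35.0 and 52.2 CPM in chow replicate 1. No marker of these lists was at 0 in any library. Their part in the choroid plexus values was not tested.

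A second list of 20 genes known from choroid plexus, of which 19 were in the table, resembled the first in its highest library. Of the 19 tested, 18 were highest in chow replicate 1, beside 33.2% of all genes tested, and the exception was Htr2c, a serotonin receptor that neurons also express. High fat replicate 2 was next highest for 14 of the 19, beside 28 of the 34 and 11.4% of all genes tested. Chow replicate 5 was lowest for 8 of the 19, beside 20 of the 34 and 12.1% of all genes tested. Vat1l, Trpm3 and Htr2c were the most abundant, at 510, 157 and 135 CPM in chow replicate 1 and 46.9 to 246, 95.1 to 150 and 77.8 to 163 CPM elsewhere. Their ranges over all libraries were 10.9-fold, 1.66-fold and 2.09-fold, beside a median range of 37.2-fold in the first list. Ecrg4, a secreted peptide precursor of choroid plexus, chosen after its values were seen, was at 3.41, 19.3, 1.58 and 8.34 CPM with high fat diet and 39.1, 9.22, 0.898 and 1.27 CPM with chow, the library order of Ttr except that high fat replicate 5 was above chow replicate 8. Genes of ion transport that are shared with neurons and glia peaked less often in chow replicate 1: of 15 in the list, 4 were highest there. Others of the 15 were lowest in chow replicate 1, namely Atp1b1, Slc4a10, Aqp4, Clcn2, Slc4a7 and Kcna3. Atp1b1 and Atp1b2 of this list, subunits of the sodium pump, were at 1305 and 1078 CPM in chow replicate 1 and 1423 to 2339 and 590 to 1125 CPM elsewhere. In a list of vitamin A and thyroid hormone handling, 5 of 14 tested genes were highest there. Crym and Aldh1a1 of this list, a thyroid hormone binding protein and a retinal dehydrogenase, were at 18.7 and 53.6 CPM in chow replicate 1.

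The diets were compared to ask whether high fat feeding changed these genes in the amygdala. By edgeR's quasi-likelihood test with Benjamini-Hochberg adjustment over all 15186 genes, 0 of the 34 genes passed an adjusted p under 0.05, higher or lower, as did 0 of all genes, so percent called was 0 in each direction. Car14 was the 1 gene of the 34 with an unadjusted p under 0.05, beside 4.27% of all genes tested. DESeq2 and limma-voom also called 0 of the 34, with 1 and 0 at an unadjusted p under 0.05, beside 6.52% and 4.29% of all genes tested. DESeq2 gave no adjusted p for some of the 34, among them Cab39l, Calml4, Clic6, Krt18, Krt8, Lmx1a, Msx1, Otx2 and Rdh5. Its 0 calls therefore do not cover these genes. With sample quality weights limma-voom called 0, with 9 of the 34 at an unadjusted p under 0.05, beside 29.6% of all genes tested, so the list was near the background. Leaving out chow replicate 2 gave calls for 0.758% of all genes tested and for 0 of the 34. The diets overlapped in all 34 genes, while they did not overlap in 1.36% of all genes tested.

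The median log2 fold, high fat over chow, was -0.72 over the 34 genes, with 32 negative and 2 positive, beside -0.012 over all genes tested. Without chow replicate 1 the median was 0.65, with 33 positive and 1 negative, so the direction rested on that library. Limma-voom, which averages on the log scale, gave a median of -0.019 with all 8 libraries, with 15 positive. With its quality weights, which gave chow replicate 1 a weight of 0.0865 and high fat replicate 2 a weight of 3.38, the median was 1.41. Without high fat replicate 2 the edgeR median was -1.44, and without both chow replicates 5 and 8, a choice made after seeing the data, it was -1.59. In the latter setting all 34 folds were negative. There 13 of the 34 had an unadjusted p under 0.05 by edgeR, beside 426 of 15474 genes tested, and 0 passed an adjusted p under 0.05. The medians of the libraries were higher with high fat diet for 19 genes and higher with chow for 15.

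Ttr had a log2 fold of -0.66 ± 1.26 (SE, n = 4 per diet) and an adjusted p of 0.885 by edgeR, and 1.12 without chow replicate 1. Its mean over 4 libraries was 1174 ± 1239 CPM after high fat feeding and 1854 ± 2689 CPM after chow (SD), so the spread within each diet exceeded the difference. The most negative folds were those of Krt18 at -2.65 ± 1.36, Krt8 at -2.58 ± 1.43, Clic6 at -2.12 ± 1.25, Msx1 at -2.11 ± 1.19, Calml4 at -2.08 ± 1.34 and Otx2 at -2.02 ± 1.10 (SE). Without chow replicate 1 they were 0.39, 0.86, 0.37, 0.62, 1.02 and 0.24. Kl, Folr1 and Enpp2 had -0.96 ± 1.08, -1.14 ± 1.21 and -0.68 ± 0.63, which became 0.79, 0.69 and 0.086. All these genes had an adjusted p between 0.753 and 0.885 by edgeR with all 8 libraries. The standard errors allow folds of more than 2 in either direction for Ttr, so neither the size nor the direction of a diet difference in Ttr could be told from these libraries.

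Car14 kept its direction whichever library was left out. Its mean over 4 libraries was 14.2 ± 4.70 CPM after high fat feeding and 31.7 ± 16.7 CPM after chow (SD), a log2 fold of -1.16 ± 0.44 with an adjusted p of 0.753 by edgeR, and chow replicate 2 was the only chow library within the high fat range. Its fold ranged from -1.45 without chow replicate 2, where the adjusted p was 0.0559, to -0.90 without chow replicate 1. The summed oligodendrocyte genes, in which chow replicate 2 was the lowest library, moved with it. Car12 was the other gene with 1 direction whichever single library was left out, with a log2 fold of 0.38 ± 0.46, with means of 60.9 ± 10.4 CPM after high fat feeding and 46.9 ± 32.0 CPM after chow (SD, n = 4), and an adjusted p of 0.832. Without both chow replicates 5 and 8 the Car12 fold was -0.28. Prlr had 0.067 ± 0.41, with an adjusted p of 0.966. The 21 remaining genes had log2 folds from -1.65 in Lmx1a to -0.089 in Col8a1, with adjusted p from 0.753 to 0.971 by edgeR.

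**Figure D5:**
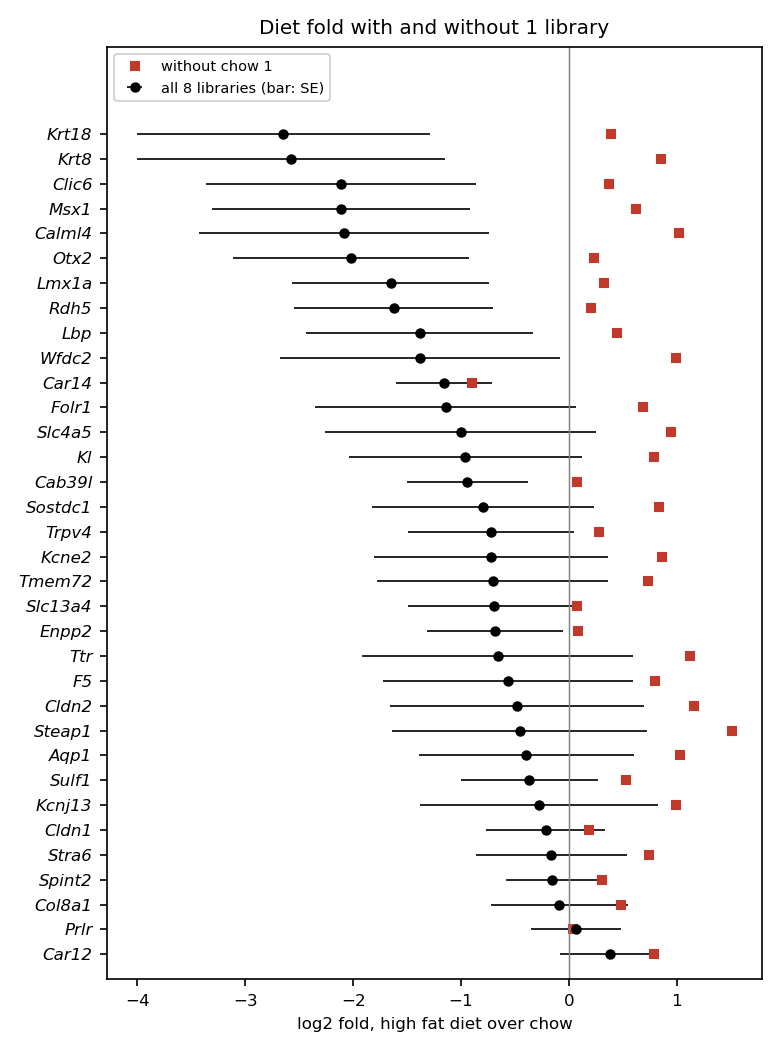
Log2 fold, high fat diet over chow, of the 34 genes by edgeR with all 8 libraries (black points, bars are SE) and without chow replicate 1 (red squares). With all libraries 32 lie below 0, and without chow replicate 1 only Car14 does.

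Of the other lists, edgeR called 0 members higher and 0 lower in each. The second choroid plexus list had 2 of 19 tested genes positive and a median log2 fold of -0.55, and the ependymal list 0 of 10 positive and a median of -1.26. Ion transport had 9 of 15 positive with a median of 0.16, and vitamin A and thyroid hormone handling 6 of 14 with a median of -0.13. Oligodendrocyte genes had 0 of 7 positive with a median of -1.06, excitatory neuron genes 5 of 5 with 1.34, and central amygdala genes 1 of 7 with -1.09. Red blood cell genes had 0 of 5 positive with -1.08, stromal fibroblast genes 6 of 8 with 0.19, and endothelial genes 3 of 7 with -0.049. An unadjusted p under 0.05 was held by 4 oligodendrocyte genes, 2 stromal genes, and 1 gene each of the excitatory neuron, central amygdala and vitamin A lists, beside 4.27% of all genes tested. The other 5 lists held 0 such genes. The median over all genes tested was -0.012.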

How the data were processed

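Messenger RNA of the central amygdala was sequenced as single-end reads on a BGISEQ-500 instrument after oligo(dT) selection and random hexamer priming, per the labels' protocols. A single table deposited by the authors holds an estimated count per gene for each of the 8 libraries, 4 per diet, and 35.2% of these values are not whole. The submitters' processing notes name Bowtie2 2.2.5, RSEM 1.2.8 and mm10, with no roles. How genes were annotated and whether strand was used is not given in the sources used here. Counts of overlapping or antisense genes may therefore be mixed. The table also holds the authors' mean count, mean FPKM and mean TPM per diet, per the file headers. Of these deposited means, FPKM was not used, and TPM appears as the authors' value.

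Counts were rounded, filtered by filterByExpr, scaled by TMM factors and compared between diets with edgeR 4.0.16 (R 4.3.3), two-sided, with no covariate. The SE is the log2 fold divided by the root of F. Ratios between libraries carry exact binomial 95% intervals that cover counting error only, since the reads have no molecular identifiers. The test was tested on simulated data with 200 changed genes. Values in every library are given for the 14 genes with the highest mean count and for others chosen after their values were seen. The genes and lists were chosen with earlier results of these data known. Alternatives were RLE and upper-quartile factors, 2 other filters on low counts (1 count in all, and a mean of 50), limma-voom from limma 3.58.1 with and without quality weights, DESeq2 1.42.0, the title number as a block, each library left out in turn, and an adjusted p under 0.1. Coordinates are from RefSeq annotation of GRCm38.p6, the assembly of mm10. Some genes that the rule for other lists takes are not reported here.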

Additional observations from a re-analysis of the deposited data

Results flagged for a closer look

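In 90 groups of 4 libraries (each gene of the choroid plexus list, and each list's summed level, per diet) the library farthest from the others was tested against the 95% critical value of Dixon's ratio. Chance exceeds it in about 5% of groups if the values are normally distributed. The ratio was taken on CPM without logs, where a single high value is flagged more readily, so the 5% need not hold here. The test was not run over all genes, so the share of all genes beyond the critical value is not known. Chow replicate 1 was the highest library for 33.2% of all genes tested and the lowest for 5159 of the 15186. The 34 genes also varied together, so their flags are not separate events. Of the 34 genes, 13 had chow replicate 1 beyond the critical value, and 0 had a high fat library beyond it. These were Enpp2 at 1999, Cab39l at 232, Clic6 at 359, Msx1 at 134, Otx2 at 95.6, Lbp at 65.8, Rdh5 at 67.8, Calml4 at 62.6, Krt18 at 58.6, Krt8 at 30.0, Wfdc2 at 15.5, Lmx1a at 11.6 and Steap1 at 8.49 CPM. Ttr, Kl and Folr1 were not among them, since chow replicate 2 lay between chow replicate 1 and the low chow libraries. The summed levels of the second choroid plexus list, at 2063 CPM, and of the ependymal list, at 342 CPM, also set chow replicate 1 apart from the other chow libraries. The summed endothelial genes were set apart in high fat replicate 1, at 240.2 CPM, and the summed stromal fibroblast genes in chow replicate 2, at 265 CPM, of which Dcn made up 172 CPM. Without Dcn the other 7 stromal genes summed to 93.6 CPM in that library, close to the 83.4 CPM of chow replicate 1.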

How the results depend on the processing

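Every call count of the choroid plexus list stayed at 0 under each alternative run, though DESeq2 gave no adjusted p for some of its genes. Over all genes the count was 0 with each except without chow replicate 2, so that leaving out 1 library gave 0 to 116 calls (0.758% of the genes tested at most). RLE and upper-quartile factors, both filters and DESeq2 turned the fold of 0 of the 34 genes, and the count of genes highest in chow replicate 1 was also 33 with plain library totals. A filter at a mean of 50 counts left 32 of the 34 to test, without Lmx1a and Steap1. Folds of low genes are imprecise, and the standard error exceeds the fold in 21 of the 34 genes. The setting without both chow 5 and chow 8 libraries was chosen after seeing the data.

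The title numbers were not found to pair the libraries. The correlations of deviations from the diet mean between libraries of the same number were 0.013, -0.043, 0.035 and 0.39 for numbers 1, 2, 5 and 8, and 1 of the 4 high fat libraries correlated best with the chow library of its own number. With the number as a block edgeR called 0 of all genes, the median log2 fold of the list was 0.049, and 21 of the 34 folds turned: Aqp1 0.46, Cldn1 0.048, Cldn2 0.73, Col8a1 0.026, F5 0.27, Folr1 0.050, Kcne2 0.31, Kcnj13 0.69, Kl 0.36, Msx1 0.036, Prlr -0.10, Slc13a4 0.10, Slc4a5 0.11, Sostdc1 0.16, Spint2 0.022, Steap1 0.54, Stra6 0.24, Sulf1 0.065, Tmem72 0.22, Ttr 0.73 and Wfdc2 0.39.

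By limma-voom the median was -0.019 and 15 folds turned: Aqp1 0.30, Cldn1 0.024, Cldn2 0.56, F5 0.11, Kcne2 0.034, Kcnj13 0.48, Kl 0.14, Prlr -0.11, Slc13a4 0.074, Spint2 0.018, Steap1 0.48, Stra6 0.24, Tmem72 0.12, Ttr 0.31 and Wfdc2 0.46.

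With quality weights the median was 1.41 and 31 turned: Aqp1 2.14, Cab39l 0.19, Calml4 1.45, Cldn1 1.05, Cldn2 2.85, Clic6 0.33, Col8a1 1.09, Enpp2 0.22, F5 2.26, Folr1 1.83, Kcne2 1.98, Kcnj13 2.51, Kl 1.95, Krt18 1.01, Krt8 0.94, Lbp 1.03, Lmx1a 0.40, Msx1 1.53, Otx2 0.40, Rdh5 0.43, Slc13a4 1.74, Slc4a5 2.07, Sostdc1 1.83, Spint2 0.57, Steap1 2.31, Stra6 1.37, Sulf1 0.98, Tmem72 1.95, Trpv4 0.66, Ttr 2.44 and Wfdc2 2.86.

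Without both chow 5 and chow 8 libraries 2 turned: Car12 -0.28 and Prlr -0.14.

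With 1 library left out the median of the list ran from -1.44 to 0.65, and 32 of the 34 folds changed sign in at least 1 such setting. Their lowest and highest folds were Aqp1 -1.17 to 1.03, Cab39l -1.18 to 0.072, Calml4 -2.84 to 1.02, Cldn1 -0.50 to 0.18, Cldn2 -1.37 to 1.16, Clic6 -2.83 to 0.37, Col8a1 -0.61 to 0.48, Enpp2 -1.18 to 0.086, F5 -1.34 to 0.79, Folr1 -2.01 to 0.69, Kcne2 -1.67 to 0.87, Kcnj13 -1.27 to 1.00, Kl -1.55 to 0.79, Krt18 -3.34 to 0.39, Krt8 -3.29 to 0.86, Lbp -2.03 to 0.44, Lmx1a -1.99 to 0.32, Msx1 -2.51 to 0.62, Otx2 -2.60 to 0.24, Prlr -0.38 to 0.34, Rdh5 -2.06 to 0.21, Slc13a4 -1.06 to 0.074, Slc4a5 -1.80 to 0.94, Sostdc1 -1.57 to 0.83, Spint2 -0.43 to 0.31, Steap1 -1.49 to 1.51, Stra6 -0.49 to 0.74, Sulf1 -0.72 to 0.53, Tmem72 -1.33 to 0.73, Trpv4 -1.39 to 0.28, Ttr -1.65 to 1.12 and Wfdc2 -2.09 to 0.99. For all of these except Prlr, the sign differed without chow replicate 1. The causes were not tested.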
